A study of Mus musculus with 2 samples.

Results

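L2/3 IT CTX-2 is 1 of the 2 upper-layer labels that reference mapping assigned to cortical neurons with an active Atf3 locus after mild traumatic brain injury (mTBI). IT stands for intratelencephalic, and CTX-1 and CTX-2 are numbered versions of the same label. Members were all nuclei whose subclass in the deposited mapping of the neuron subset was L2/3 IT CTX-2. There were 154 such nuclei, 77 in each of 2 libraries, of 2580 nuclei of the neuron subset and of 8171 nuclei in all.

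Nuclei came from the ipsilateral cortex of mice that carried 1 copy of Atf3-CreER and 1 copy of the nuclear envelope reporter Sun1-sfGFP, were over 7 weeks old, and were collected 7 days after mTBI (7 dpi), a controlled cortical impact on the closed skull. Tamoxifen was given at 4 and 5 dpi, so that nuclei of cells with Atf3 promoter activity around those days gained the reporter, and GFP+ nuclei were sorted for single nucleus RNA sequencing. Each library pooled 4 animals of 1 sex by its title, and both were injured and given tamoxifen, so that no group of uninjured neurons entered any comparison here. The sex field and the source name of both labels read male, while the titles gave a male and a female library. In what follows, paired values give the male library first and the female library second. CTX-2 nuclei held 3 and 562 UMIs (unique molecular identifiers, 1 per captured transcript) of Xist, and 3 to 12 UMIs of each of Ddx3y, Uty, Eif2s3y and Kdm5d in the male library against 0 in the female one.

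Intratelencephalic neurons are excitatory neurons whose axons stay within the cortex and striatum, and those of layers II and III link cortical areas and hemispheres. Cux2 is a homeobox transcription factor of upper-layer neurons. Rorb, a nuclear receptor, marks layer IV, and Tshz2, a teashirt-family zinc finger factor, is commonly used as a marker of near-projecting neurons of the deep layers. Injured neurons switch on Atf3 and Jun, transcription factors downstream of the stress kinase DLK, and other injury genes such as the transcription factor Sox11 and the endopeptidase Ecel1. Ddit3 (CHOP) is the death-linked factor of the integrated stress response.

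CTX-2 nuclei were shallow and lay in several clusters. They made up 5.59% (95% exact binomial interval 4.43% to 6.93%) and 6.41% (5.09% to 7.94%) of the neuron subset, a mean of 5.997% ± 0.579 (SD, n = 2 libraries). Among neurons with at least 2300 UMIs the share was 25 of 990 nuclei (2.53%) and 34 of 1085 nuclei (3.13%). CTX-2 nuclei had medians of 1506 and 1921 UMIs, with ranges of 508 to 10361 and 501 to 17149. The median CTX-1 nucleus was 2.46 times and 3.83 times as deep, the median L4/5 IT nucleus 2.97 times and 5.10 times, and the median L6 IT nucleus 1.20 times and 1.41 times. The CTX-2 sums held 183302 and 256089 UMIs, so that a gene at 0 in a sum could still have a level of up to 16.4 and 11.7 CPM (counts scaled to a fixed total per sum), the floor of 3 counts. The intervals and floors cover counting error only.

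The deposited clusters split the label into 3 main groups of nuclei. Cluster 3, in which 471 of 660 neurons were CTX-1, held 62 CTX-2 nuclei (40 and 22). Cluster 20, in which CTX-2 was the most frequent label with 35 of 81 neurons, split them as 4 and 31. Cluster 14, led by the layer V pyramidal tract label (L5 PT), held 22 (17 and 5). The other 35 nuclei lay in 7 clusters, among them 9 in cluster 6, led by Sst interneurons, and 7 in cluster 17, led by L6 IT. In all, 77.3% of the CTX-2 nuclei sat in clusters whose most frequent neuron label was another one, a share that was 17.3% for CTX-1, 78.7% for L6 IT and 100% for L4/5 IT and L5 IT.

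The deposited table also gives a subclass from the mapping of all nuclei, which kept the CTX-2 label in 62 of the 154 nuclei (40.3%) and gave L6 IT to 78 and another label to 14. The same comparison kept the label of 48.6% of the 35 L5 IT nuclei, 71.3% of L4/5 IT nuclei, 78.7% of L6 IT nuclei, 88.2% of CTX-1 nuclei, 91.8% of L6 CT nuclei and 95.8% of L5 PT nuclei. Nuclei with CTX-2 in both mappings had medians of 2347 and 3806 UMIs, and those called L6 IT in the mapping of all nuclei 850.5 and 905.5 UMIs. A further 53 nuclei were CTX-2 in the mapping of all nuclei and not in the neuron subset, of which 29 were L4/5 IT and 12 were CTX-1 there.

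**Figure D1:**
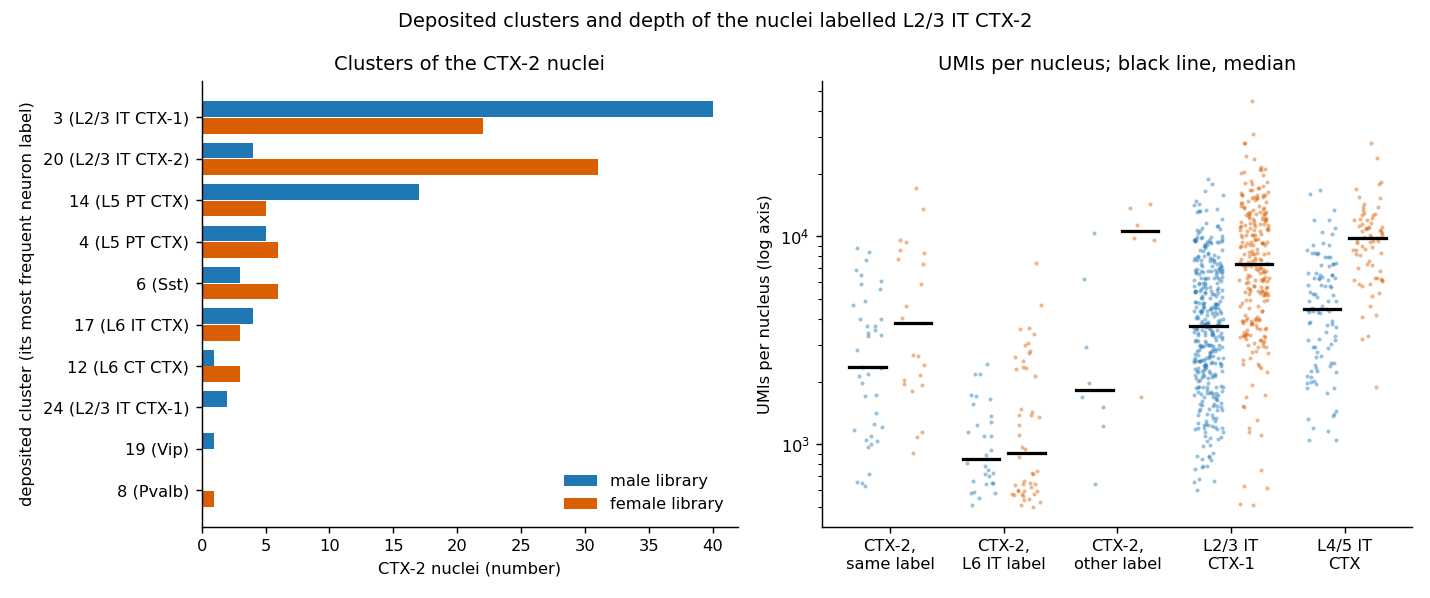
The left panel counts CTX-2 nuclei (x axis) in each deposited cluster (y axis, with the most frequent neuron label of that cluster) in the male (blue) and female (orange) library. The right panel gives UMIs per nucleus (log axis) for CTX-2 nuclei by their label in the mapping of all nuclei and for CTX-1 and L4/5 IT nuclei, 1 point per nucleus and a black line at the median, and the CTX-2 nuclei called L6 IT there sit lowest, at medians of 850.5 and 905.5 UMIs.

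The marker of the label was present at an intermediate level. Cux2 (chr5:121856366-122050102, minus strand, GRCm38) was at 218 and 203 CPM in CTX-2, a mean of 211 ± 10.7 (SD, n = 2). By mean level, the CTX-2 label had rank 5 of 11 neuron labels, after CTX-1 (541 and 491 CPM), the interneuron labels Pvalb (303 and 319 CPM) and Sst, and L4/5 IT (226 and 310 CPM), and before Lamp5 at 109 CPM. The L4/5 IT libraries spread over 226 to 310 CPM, and CTX-2 lay below both of them, with a difference that did not pass the test (log2 difference -0.45 ± 0.27, SE, adjusted p = 0.51). Every adjusted p here is from edgeR's quasi-likelihood test and the Benjamini-Hochberg method over all genes tested. A Cux2 UMI was found in 24 of 77 (31.2%) and 20 of 77 (26.0%) CTX-2 nuclei, and in 3.61% and 5.18% of microglia, a cell type that should lack it and whose median depths were 1298.5 and 3012.5 UMIs. After thinning each nucleus to 2300 UMIs, which left out 52 and 43 CTX-2 nuclei and 99 and 15 CTX-1 nuclei, Cux2 was found in 6 of 25 and 11 of 34 CTX-2 nuclei against 66.3% and 64.6% of CTX-1 nuclei. Rorb was low in CTX-2, with 9 and 12 UMIs in all (49.1 and 46.9 CPM).

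By summed level, Tshz2 set CTX-2 apart among the 11 labels. Its level was 2144 and 1308 CPM in CTX-2, a mean of 1726 ± 591 (SD, n = 2) and the highest of the 11 labels in both libraries. The next labels were L5 IT (605 and 124 CPM), L5 PT (282 and 265 CPM) and L4/5 IT (342 and 62.0 CPM), whose ranges overlapped one another and stayed below both CTX-2 libraries. CTX-1 had 23.5 and 43.5 CPM. The 7 nuclei labelled L5 NP, the near-projecting label, were all in the female library and too few for the fit, and their sum held Tshz2 at 3112 CPM and no Cux2 UMI.

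**Figure D2:**
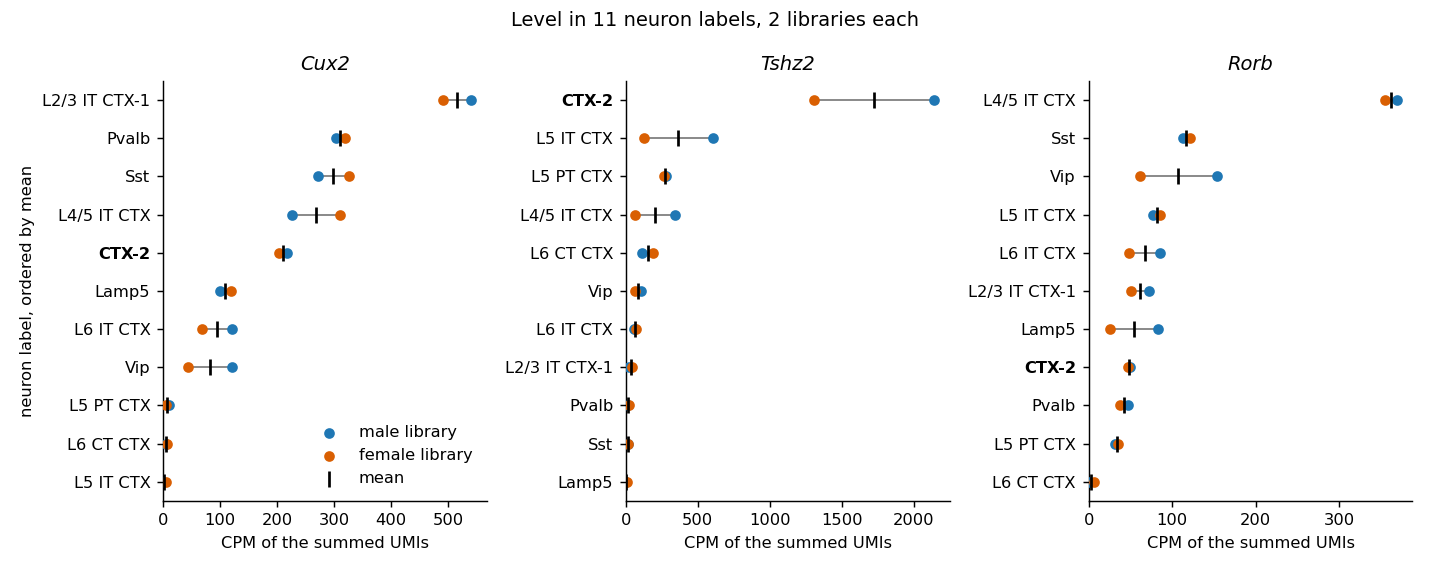
Levels of Cux2, Tshz2 and Rorb in CPM of the summed UMIs (x axis) in 11 neuron labels (y axis, ordered by mean) for the male (blue) and female (orange) library, with a black tick at the mean. CTX-2 has rank 5 for Cux2 at 211 CPM, is highest for Tshz2 at 1726 CPM and well below L4/5 IT for Rorb.

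The Tshz2 UMIs came from a minority of the nuclei. A UMI was found in 28 of 77 and 24 of 77 CTX-2 nuclei, against 3.67% and 6.97% of microglia. L5 PT nuclei, with medians of 3790 and 10700 UMIs, had one in 122 of 352 and 126 of 290 nuclei. Of these, 27 and 42 held at least 5 Tshz2 UMIs. In CTX-2, the 21 and 19 nuclei with at least 5 UMIs held 96.2% and 98.2% of the label's Tshz2 UMIs in their library. Up to 57 and 54 UMIs lay in a single CTX-2 nucleus. Of the 40 CTX-2 nuclei with at least 5 UMIs, 28 lay in cluster 3 and 7 in cluster 17, where all 7 CTX-2 nuclei reached that number. The rest lay in clusters 12, 14 and 20, with 2, 2 and 1 nuclei. After thinning to 2300 UMIs, Tshz2 was found in 21 of 25 and 17 of 34 CTX-2 nuclei, and in 3.83% and 6.33% of CTX-1 nuclei.

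Presence of Tshz2 differed by the label in the mapping of all nuclei, which is given with no test since that label was made from the same counts. Among nuclei with at least 2300 UMIs, 18 of 21 and 13 of 15 nuclei with CTX-2 in both mappings had a Tshz2 UMI. All 3 and all 5 nuclei given a label other than CTX-2 and L6 IT there also had a Tshz2 UMI. None of the 15 nuclei (1 and 14) that were called L6 IT in the mapping of all nuclei had one at that depth, while 6 of the 14 of the female library had a Cux2 UMI. Splitting the CTX-2 nuclei by Tshz2, a choice made after its values were seen, gave Cux2 levels of 163 and 188 CPM in nuclei with a Tshz2 UMI and 314 and 227 CPM in those without. This split also separated nuclei by depth, with medians of 3614 and 6638 UMIs in the former and 1099 and 1087 UMIs in the latter. Of the former, 13 of 52 nuclei lay below 2300 UMIs, and of the latter 82 of 102. The part of depth in the Cux2 levels was not tested.

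**Figure D3:**
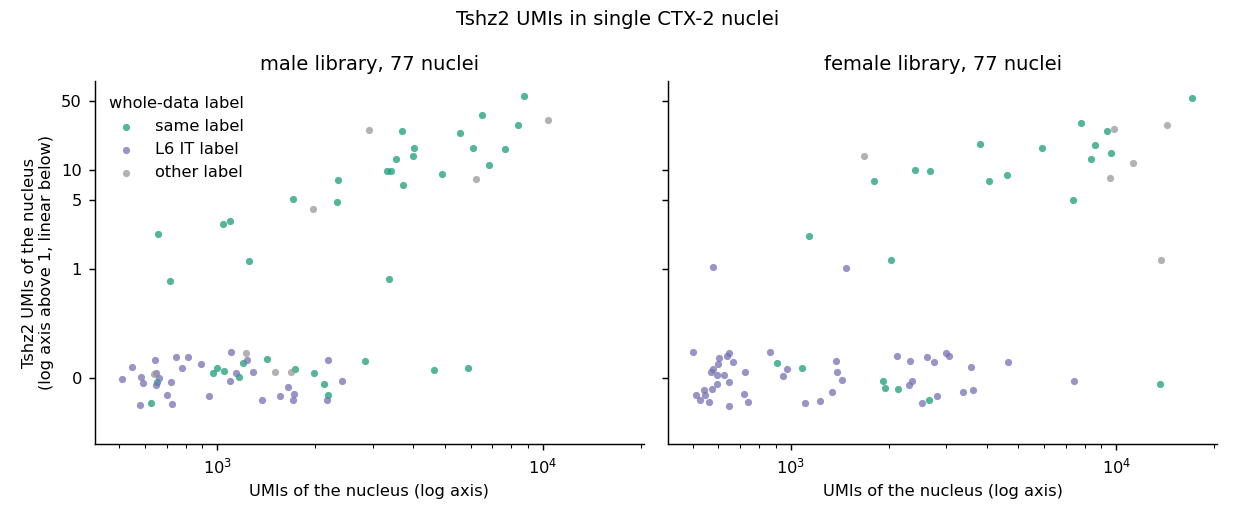
Tshz2 UMIs (y axis, log above 1 and linear below, with a small vertical shift to separate points) against all UMIs (x axis, log) of each CTX-2 nucleus, coloured by its label in the mapping of all nuclei, with 77 nuclei per library. Green points, CTX-2 in both mappings, hold most of the nuclei at 5 or more UMIs, and purple points, called L6 IT, stay at 0 apart from 2 nuclei with 1 UMI in the female library.

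UMIs were summed per library and label, and CTX-2 was compared with CTX-1, with L4/5 IT, and with the mean of 6 other excitatory labels in 1 fit of 11 labels. All 3 comparisons use the same CTX-2 sums and are given side by side. The labels were assigned from these same counts, so the tests compare groups that were partly defined by the genes tested, and p-values measure the spread between 2 pooled libraries that also differ in sex and in UMIs per nucleus, which cannot be told apart. CTX-2 stood for few and shallow nuclei, and markers of microglia, which made up much of the sort, summed to 715 and 1788 CPM in CTX-2, 522 and 886 CPM in CTX-1 and 6925 and 6584 CPM in microglia. The part of RNA from outside the nuclei in the results was measured only through the subtraction given with the alternatives.

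Against CTX-1, the other layer II/III label, CTX-2 had more of a set of genes led by the deep-layer marker Tshz2 and less of a short set that included Cux2. Of 8218 genes tested, 22 were higher (0.268%) and 7 were lower (0.0852%) at an adjusted p under 0.05. With the library as a block, since every label of a library came from the same animals, 47 were higher and 33 lower.

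Tshz2 rose most, by 5.59 ± 0.52 (log2, SE, adjusted p = 5.3e-07), with log2 differences of 6.43 and 4.87 in each library alone, and it passed in all 11 of its alternatives. Gm26883, an uncharacterised long noncoding RNA (chr2:169633646-169888503, minus strand), lies inside the span of Tshz2 on the opposite strand (chr2:169633013-170071816, plus strand), so its reads may not be separable from those of Tshz2. Its levels were 180 and 242 CPM in CTX-2 against 7.22 and 5.90 CPM in CTX-1, and 18 of its 33 UMIs in the male CTX-2 sum lay in 1 nucleus. The other leading genes had smaller counts. Ncam2, a neural cell adhesion molecule, was at 207 and 250 CPM against 36.7 and 39.5 CPM (log2 2.56 ± 0.34, adjusted p = 0.00011). The release factor gene Unc13c, the kainate receptor subunit gene Grik1 and Ptchd4 rose by 2.72, 2.86 and 2.29 (log2), with no overlap between CTX-2 and CTX-1 libraries, and their calls passed in 7 of 12, 4 of 11 and 9 of 11 alternatives. Of the 30 Ptchd4 UMIs of the female CTX-2 sum, 16 lay in 1 nucleus. Foxp2, a forkhead factor of layer VI neurons, rose by 2.98 (log2), but 13 of its 16 and 7 of its 8 UMIs lay in a single nucleus of each library.

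The 7 lower genes were led by Ccbe1, which encodes a secreted matrix protein, at 87.3 and 15.6 CPM in CTX-2 against 514 and 401 CPM in CTX-1 (log2 -3.32 ± 0.44, adjusted p = 0.00011). Cux2 fell by 1.32 ± 0.26 (log2, SE, adjusted p = 0.017), by nearly the same amount in each library alone (-1.36 and -1.30), and this call passed in 7 of 12 alternatives. The others were Ankrd6, Gsg1l and Syndig1, with log2 differences of -2.84, -2.18 and -1.53, then Plcb4, a phospholipase C of receptor signalling, at -1.15, and the noncoding RNA 9530059O14Rik at -0.96. Gsg1l and Syndig1 encode proteins associated with AMPA receptors. All 7 genes were lower in CTX-2 in both libraries.

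Layer markers moved in a mixed way. Of 15 tested L2/3 IT markers, Cux2 was lower than in CTX-1 and 0 were higher, and their median log2 difference was -0.67, against -0.01 over all genes tested. Of 8 tested L4/5 IT markers 2 were higher than in CTX-1, the hearing and scaffold gene Whrn and the transcription factor gene Tox, and 0 were lower (median 1.36). The call of Whrn passed in 2 of 8 alternatives and that of Tox in 4 of 11, and DESeq2 called Tox alone. Of 13 tested deep layer markers 3 were higher, Tshz2, Foxp2 and the heparan sulfate sulfotransferase gene Hs3st4, and 0 were lower (median 0.87). The call of Hs3st4 passed in 6 of 11 alternatives. A single nucleus held 18 of its 23 UMIs in the male library and at most 6 of 27 in the female one. Fezf2, the selector gene of layer V, and Npr3, Nxph4 and Osr1 had 0 UMIs in CTX-2.

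Against L4/5 IT, the label nearest to CTX-2 in Cux2, CTX-2 had little of the layer IV marker Rorb and more of Tshz2, of Jun, and of some noncoding and ribosomal genes. The test called 32 genes higher (0.389%) and 55 lower (0.669%), and with the library as a block 93 and 177. Rorb (chr19:18930605-19111196, minus strand) was at 49.1 and 46.9 CPM in CTX-2 against 370 and 355 CPM in L4/5 IT, and was 7.99-fold lower (SE of the log2 difference 0.33, adjusted p = 1.6e-05). Rorb was the 1 gene called by edgeR of 8 tested L4/5 IT markers. Of 15 tested L2/3 IT markers edgeR called 0, with 3 at an unadjusted p under 0.05, and DESeq2 called Rasgrf2.

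Further genes fell to very low counts in CTX-2. Scube1, a secreted and cell-surface protein gene, had 1 UMI in each CTX-2 library against 79.3 and 91.5 CPM in L4/5 IT. Fras1, an extracellular matrix gene, Lhfp, Cadps2, a gene of dense-core vesicle release, and Arhgap15 had log2 differences of -2.94, -2.82, -2.79 and -3.19. Cxxc4, an inhibitor of Wnt signalling, had 0 UMIs in both CTX-2 libraries and was at least 1.06-fold and 2.40-fold lower than in L4/5 IT, and Pamr1 had 1 UMI and 0 UMIs. Of 8 tested excitatory neuron markers 3 fell, the kinase gene Camk2a (327 and 293 CPM against 602 and 565 CPM), the synaptic vesicle gene Sv2b and Arpp21, and of 36 tested cadherin and axon guidance genes the netrin receptor genes Unc5d and Unc5c fell by 1.67 and 1.52 (log2). Slc1a2, the glutamate transporter gene of astrocytes, was lower as well, by 1.71 (log2). The calls of Arpp21 and Camk2a passed in 3 of 11 alternatives each and that of Sv2b in 2 of 11, and Slc17a7, the vesicular glutamate transporter of cortical excitatory neurons, was at 92.7 and 23.4 CPM in CTX-2 against 77.4 and 36.6 CPM.

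Among the genes higher than in L4/5 IT, Tshz2 had a log2 difference of 3.05 ± 0.47 (SE, adjusted p = 0.0013), with 2.51 and 4.32 in each library alone. Gm26870, an uncharacterised noncoding RNA on chromosome 9, was at 436 and 297 CPM against 7.74 and 26.8 CPM (log2 4.18 ± 0.51, adjusted p = 6.2e-05). It lies at chr9:3000282-3038313 (minus strand) and overlaps several genes of the opposite strand, among them Gm10722 and Gm11168, so its reads may not be separable from theirs. Npy, which encodes neuropeptide Y, was at 256 and 43.0 CPM, the former 47 UMIs and the latter 11, against 5.80 and 11.3 CPM. The ribosomal protein genes Rpl38, Rpl13 and Fau rose by 3.70, 3.41 and 3.15 (log2), on 37 and 7, 36 and 12, and 16 and 8 UMIs. Their calls passed in 4, 6 and 3 of 10 alternatives. Jun was at 245 and 187 CPM in CTX-2 against 58.0 and 45.1 CPM in L4/5 IT, and rose by 1.98 ± 0.42 (log2, SE, adjusted p = 0.02), a call that passed in 6 of 11 alternatives. By mean level L4/5 IT had the least Jun of the 11 labels, CTX-1 was at 102 and 163 CPM, and L6 IT had the most, at 266 and 426 CPM. Of 13 tested genes of sodium channels and the axon initial segment, the sodium channel modulators Fgf13 and Fgf12 moved in opposite directions, at 1.82 and -1.08 (log2). In the female CTX-2 sum, 17 of the 32 Fgf13 UMIs lay in 1 nucleus. Gad2, the GABA synthesis enzyme, was called higher on 2 and 7 UMIs, in 2 of 11 alternatives only.

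Against the mean of the 6 other excitatory labels (CTX-1, L4/5 IT, L5 IT, L5 PT, L6 IT and L6 CT), 37 genes were higher (0.45%) and 6 lower (0.073%), and with the library as a block 73 and 32. This contrast averages log2 levels, so that labels in which a gene is near 0 weigh strongly. Cux2 rose by 2.52 ± 0.28 (log2, SE, adjusted p = 7.9e-06), although the arithmetic mean of the 6 labels was 150 and 148 CPM against 218 and 203 CPM in CTX-2, since L5 IT, L5 PT and L6 CT hold little Cux2. Of 15 tested L2/3 IT markers 3 were higher, Cux2, the Ras exchange factor gene Rasgrf2 (431 and 410 CPM against 248 and 246 CPM) and the ephrin receptor gene Epha6 (447 and 500 CPM against 341 and 279 CPM), and 1 was lower, the BMP receptor gene Bmpr1b (log2 -2.37, adjusted p = 0.037). The calls of Cux2, Rasgrf2 and Epha6 passed in 12, 11 and 11 of 12 alternatives. In the female library, 54 of the 128 Epha6 UMIs of CTX-2 lay in 1 nucleus.

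Tshz2 and Gm26883 were higher here too, with log2 differences of 3.63 ± 0.29 and 5.44 ± 0.42 (adjusted p = 1.6e-08 for each), both called in all 12 alternatives. Unc13c was at 70.9 and 105 CPM against 9.33 and 17.3 CPM (log2 3.72). Stc2, a secreted glycoprotein gene induced by stress, the intermediate filament gene Nes and the noncoding RNA Gm2762 were higher on 6 to 16 UMIs per library. Larger counts lay behind Kcnh5, a potassium channel gene and L4/5 IT marker (log2 0.96), the cadherin gene Cdh8 (1.02), the calcium channel subunit gene Cacna2d3 (0.78) and Scg2, a secretory granule gene that follows activity (1.14), all of which passed the test. The 6 lower genes were Bmpr1b, the kainate receptor subunit gene Grik3, the synaptic adhesion gene Lrfn2, Garnl3, the tubulin-binding Stmn2 of growing axons, and Slc7a14, and each was lower in both libraries. Lrfn2 was at 180 and 180 CPM against 531 and 601 CPM (log2 -1.55 ± 0.28, adjusted p = 0.0053).

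**Figure D4:**
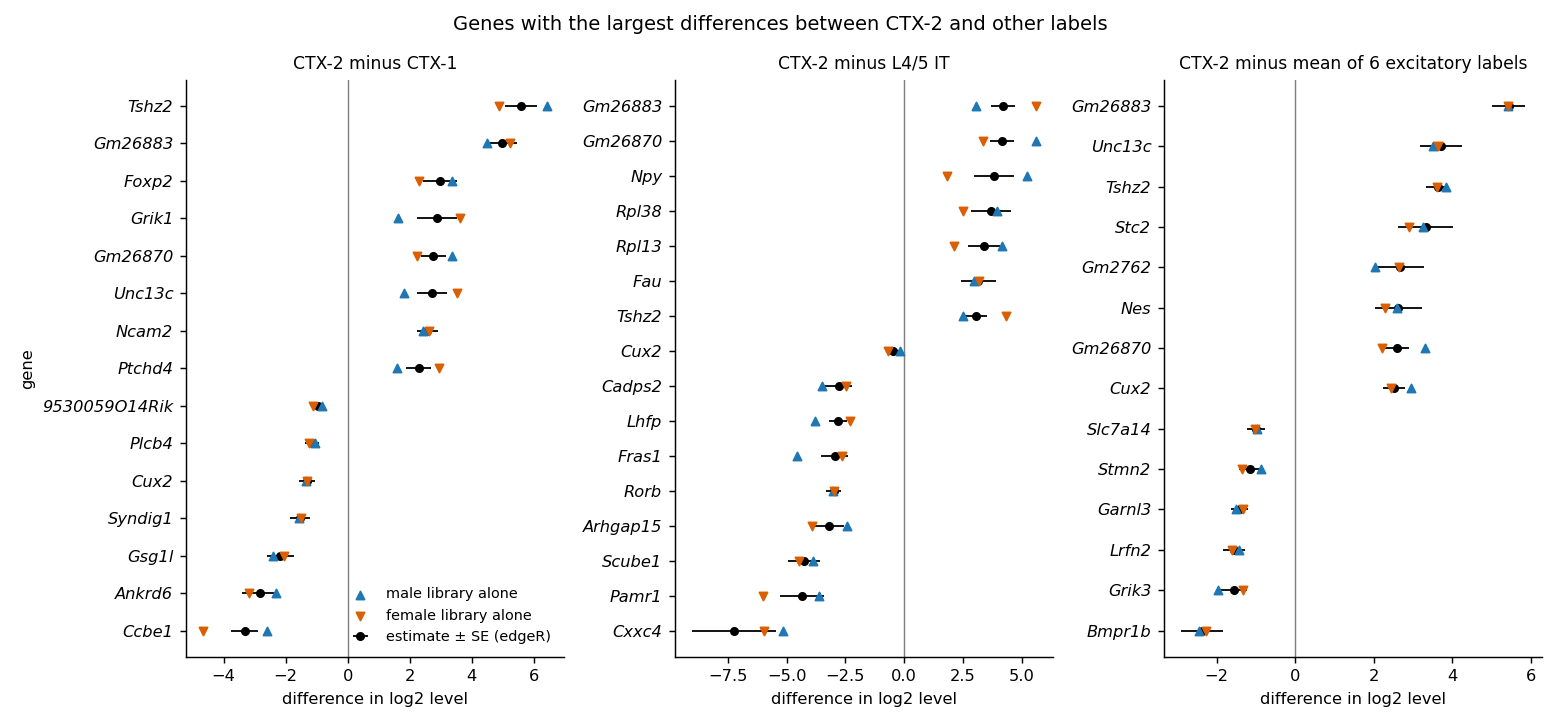
Difference in log2 level (x axis) of the genes with the largest called differences and of Cux2 (y axis) between CTX-2 and CTX-1, L4/5 IT or the mean of 6 excitatory labels. Black points and bars are the estimate ± SE of edgeR, and triangles are the male (blue) and female (orange) library alone. The same direction in both libraries was a condition for showing a gene, apart from Cux2, which also had it, and Cux2 against L4/5 IT did not pass the test.

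Injury genes were detected in CTX-2, and few of them differed from the other labels by the test. Of the study's panel of 17 injury genes, which the study chose on these libraries, all 17 had UMIs in both CTX-2 libraries. None was called against CTX-1 or against the mean of the other excitatory labels, where their median log2 differences were -0.12 and -0.02, with -0.01 and 0.03 over all genes tested, and Jun alone was called against L4/5 IT. At an unadjusted p under 0.05, 1, 2 and 4 of the 17 passed, and DESeq2 called 0, 0 and 1. Over all genes the same 3 comparisons called 29, 43 and 87 genes, with 676, 819 and 1025 at an unadjusted p under 0.05. In CTX-2, Ecel1 was at 316 and 328 CPM, Sox11 at 224 and 144 CPM and Atf3 itself at 109 and 97.6 CPM. An Atf3 UMI was found in 11 of 77 (14.3%) and 16 of 77 (20.8%) nuclei, and the reporter had 1 and 2 UMIs. Every cell type was sorted through the Atf3 reporter, so none gives a background share for Atf3.

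Of 15 tested genes of the integrated stress and unfolded protein responses, 0 were called in any of the 3 comparisons by edgeR or DESeq2. At an unadjusted p under 0.05, 3, 6 and 3 of them passed against CTX-1, L4/5 IT and the mean of the other excitatory labels, and their median log2 differences were 0.41, 0.58 and 0.36. Ddit3 was at 213 and 117 CPM in CTX-2. Nor did edgeR or DESeq2 call any of the 12 tested genes of the p53 and BCL2 families, the 23 of potassium and HCN channels or the 6 tested microglia markers. Of these, 3, 10 and 2 passed against L4/5 IT at an unadjusted p under 0.05. The potassium channel gene Kcnh5, called against the mean of the other excitatory labels, was listed with the L4/5 IT markers and is not among the 23. Of 15 tested genes of the DLK, JNK and SARM1 pathways, Jun was again the only edgeR call, against L4/5 IT, where DESeq2 also called the JNK3 gene Mapk10. Of 16 tested regeneration-associated genes, Jun and Npy were higher than in L4/5 IT and Stmn2 was lower than in the mean of the other excitatory labels. Of 26 tested glutamate and GABA receptor genes, Grik1 was higher than in CTX-1 and Grik3 lower than in the mean of the other excitatory labels by edgeR. Against L4/5 IT none of the 26 was called by edgeR or DESeq2, but 13 passed at an unadjusted p under 0.05, 18 were lower and 3 higher in both libraries and the median log2 difference was -0.53, against -0.02 over all genes tested. Receptor genes were not alone in this. Of 36 cadherin and axon guidance genes 24 were lower and 4 higher in both libraries (median -0.59). Of the 23 potassium and HCN channel genes these were 15 and 1 (median -0.34). Regeneration-associated genes had a median of 0.65. The share of all genes tested that was lower in both libraries is not given. Of 36 cadherin and axon guidance genes the ephrin receptor gene Epha7 was higher than in CTX-1 (87.3 and 74.2 CPM against 27.1 and 26.3 CPM). In the female library, 11 of the 19 Epha7 UMIs of CTX-2 lay in 1 nucleus. The 2 tested oligodendrocyte and 2 tested vascular markers were not called. Of 10 tested inhibitory markers edgeR called only Gad2, against L4/5 IT, while DESeq2 called Nxph1 in all 3 comparisons (16 and 7 UMIs, 87.3 and 27.3 CPM in CTX-2) and Gad2 against the mean. Of the 16 Nxph1 UMIs of the male library, 9 lay in 1 nucleus. Slc32a1, Sst, Pvalb, Vip, Lhx6, Dlx1 and Sncg had 0 UMIs in CTX-2.

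The mean of the label joined nuclei of very different content, and the 3 clusters are therefore described apart, with no test since the clusters were drawn from the same counts. Of the 728 Tshz2 UMIs of CTX-2, 519 lay in cluster 3 and 137 in the 7 nuclei of cluster 17. CTX-2 nuclei of cluster 3 (median 1712 and 4210 UMIs) had Tshz2 at 2491 and 1643 CPM. The CTX-1 nuclei of the same cluster had 24.7 and 25.3 CPM, and the L4/5 IT nuclei 89.7 and 101 CPM. In cluster 3, Cux2 was at 256 and 304 CPM in CTX-2, 592 and 594 CPM in CTX-1 and 350 and 348 CPM in L4/5 IT. Ccbe1 was at 111 and 7.24 CPM against 551 and 421 CPM in CTX-1 of the cluster. Atf3 had 2 and 3 UMIs (17.1 and 21.7 CPM), below the CTX-1 nuclei of the cluster (40.3 and 68.7 CPM). Other injury genes overlapped with those nuclei, Jun at 128 and 94.1 CPM against 67.1 and 109 CPM, Ecel1 at 290 and 311 CPM against 272 and 405 CPM, Sox11 at 205 and 116 CPM against 275 and 189 CPM. Ddit3 was at 68.3 and 72.4 CPM against 68.6 and 47.6 CPM.

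CTX-2 nuclei of cluster 14 (median 1654 and 1803 UMIs) showed the opposite profile. Atf3 was at 568 and 499 CPM, Jun at 871 and 1424 CPM, Ecel1 at 530 and 712 CPM and Ddit3 at 1060 and 214 CPM. The female sum came from 5 nuclei with 14042 UMIs, and its floor of 3 counts is 214 CPM, the level of Ddit3 there. Ribosomal protein genes summed to 19275 and 6196 CPM, against 930 and 630 CPM in the CTX-2 nuclei of cluster 3. They held 94 of the 156 UMIs of Gm26870 in CTX-2, and 40 of the 47 Npy UMIs of the male library. Slc17a7 had 3 and 2 UMIs, and Tshz2 had 4 and 13. The other neurons of cluster 14 had a like profile, with Atf3 at 327 and 376 CPM, Jun at 912 and 1189 CPM, Ddit3 at 821 and 545 CPM and ribosomal protein genes at 13196 and 7836 CPM. With the CTX-2 nuclei of cluster 3 alone, Gm26870 changed sign against CTX-1 (log2 -1.42) and against the mean of the other excitatory labels (-1.58), Rpl38 against L4/5 IT (-0.97) and Foxp2 against CTX-1 (-0.78), and none of these 4 values passed the test.

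CTX-2 nuclei of cluster 20 were the shallowest, with medians of 621.5 and 645 UMIs, and 31 of the 35 were in the female library. Their 2538 and 25412 UMIs held 0 Cux2 UMIs, 0 Slc17a7 UMIs and 0 Jun UMIs, and 1 Atf3 UMI. Tshz2 had 1 and 18 UMIs, in 1 and 4 of these nuclei. In the female library the microglia markers summed to 2991 CPM, and 1 and 4 of 12 excitatory markers were detected. In the other neurons of cluster 20 the microglia markers summed to 3229 CPM in that library. Excitatory markers summed to 394 and 551 CPM in CTX-2 of cluster 20 and inhibitory markers to 788 and 590 CPM, with Gad1, Slc32a1, Sst, Pvalb and Vip at 0, against 1544 and 1397 CPM and 85.3 and 72.4 CPM in CTX-2 of cluster 3. A count of 0 allows up to 1182 and 118 CPM, the latter below the Cux2 level of CTX-2 in cluster 3. In CTX-2 of cluster 20 the male sums of excitatory and inhibitory markers lay below 1182 CPM, the floor of 3 counts. These markers did not identify the nuclei as excitatory neurons of the upper layers. Leaving out cluster 20 in every label gave 18 higher and 7 lower genes against CTX-1.

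**Figure D5:**
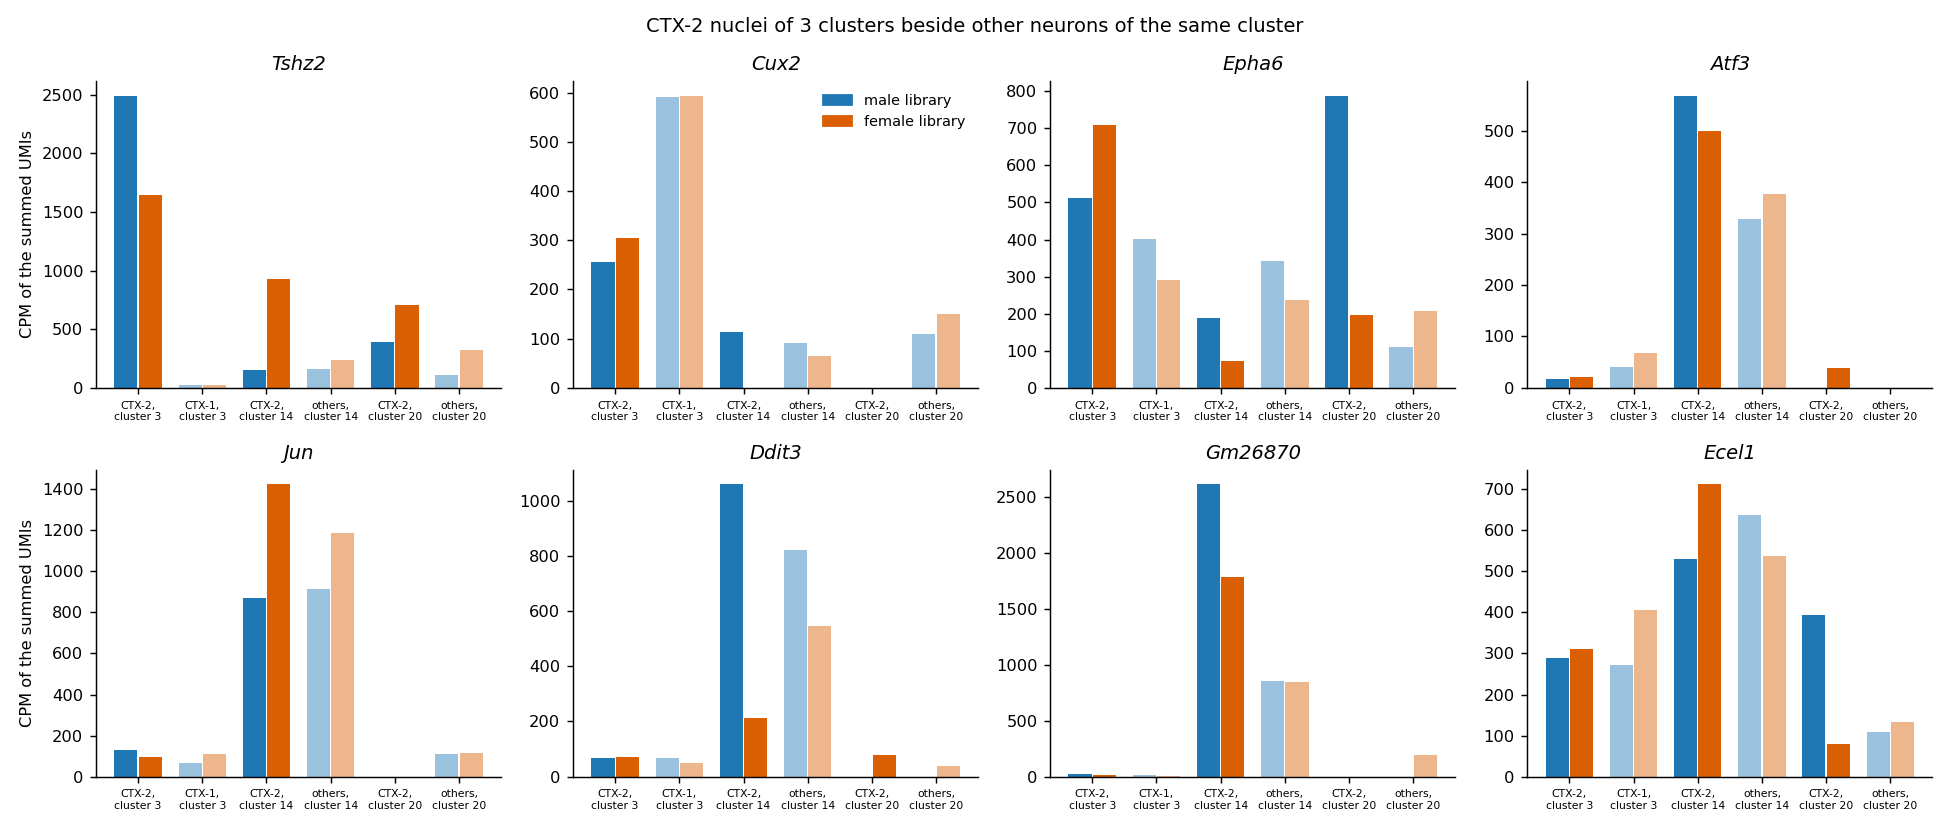
CPM of the summed UMIs (y axis) of 8 genes in CTX-2 nuclei of clusters 3, 14 and 20 (full colours) and in other neurons of the same cluster (pale colours, CTX-1 for cluster 3) in the male (blue) and female (orange) library, without error bars because each bar is 1 sum, and the male CTX-2 bar of cluster 20 rests on 4 nuclei with 2538 UMIs. Of the CTX-2 bars, Tshz2 is highest in cluster 3, with 4 and 13 UMIs in cluster 14 and 1 and 18 UMIs in cluster 20. Cux2 stands with cluster 3. Atf3, Jun, Ddit3 and Gm26870 stand with cluster 14 in CTX-2 and the other neurons alike, where Ecel1 is also higher than in cluster 3. The female CTX-2 bars of cluster 14 rest on 5 nuclei with 14042 UMIs.

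The split by the mapping of all nuclei ran along similar lines. In nuclei called L6 IT there, Atf3 was at 464 and 188 CPM, Jun at 742 and 375 CPM and Hspa5, a chaperone of the unfolded protein response, at 525 and 281 CPM. In nuclei with CTX-2 in both mappings, these genes were at 32.2 and 74.4 CPM (Atf3), 129 and 157 CPM (Jun) and 153 and 99.2 CPM (Hspa5). Epha6 ran the other way, at 185 and 80.4 CPM in nuclei called L6 IT and 555 and 909 CPM in the rest of the pair. A single CTX-2 nucleus held 54 of the 128 Epha6 UMIs of the female library. Tshz2 had 0 and 2 UMIs in the nuclei called L6 IT, which in the male library is at least 28.1-fold lower than the 2604 CPM of nuclei with CTX-2 in both mappings. Cux2 did not separate these groups, with 340 and 147 CPM in nuclei called L6 IT and 193 and 281 CPM in those with CTX-2 in both. Microglia markers summed to 1298 and 2974 CPM in the former and 627 and 1050 CPM in the latter, and their part in these differences was not tested.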

How the data were processed

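Single nucleus RNA sequencing (10x Genomics 3′ v3) was made from 2 pools of 4 animals. UMI counts per gene and nucleus were made by the authors with Cell Ranger (3.1.0 in the submitters' processing notes, which also name Seurat, DESeq2 and the build mm10) and deposited without normalization. The authors' deposited table of nuclei gives cluster, subclass, UMIs per nucleus and the percent of mitochondrial UMIs. It was used as deposited (up to 6178 genes and 10.5% mitochondrial UMIs per nucleus). A deposited matrix of depth-corrected values was not used. No doublet caller was run, and no barcode of a CTX-2 nucleus was shared by the libraries.

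Counts of 31053 genes were summed per library and label for the 11 labels with at least 20 nuclei (22 sums). edgeR 4.0.16 in R 4.3.3 was used with TMM factors, filterByExpr and the quasi-likelihood test, adjusted by Benjamini-Hochberg, at a threshold of 0.05. Fold changes of 1 library alone used CPM + 0.5, with no test. Shares had exact binomial (Clopper-Pearson) 95% intervals, also after thinning to 2300 UMIs. The sums of the male and female library come from the same animals in every label, and male minus female differences of CTX-2 correlated with those of the other labels at 0.0275 to 0.188, so fits with the library as a block are given beside the counts. The steps were tested on simulated data. Positions are from GENCODE vM21.

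Members, the 20 gene lists and tests were chosen with earlier results of these data known. Named genes were Cux2, the 8 largest called differences per direction and comparison with the same direction in both libraries and at least 20 CPM in the higher side, and called or example genes of the lists. Some genes that met this rule are not reported here.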

Additional observations from a re-analysis of the deposited data

Results flagged for a closer look

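P2rx7, an ATP-gated channel gene, was called higher in CTX-2 in all 3 comparisons, but its libraries differed in direction. Against CTX-1 its log2 difference was -4.08 (male library) and 5.38 (female library), against L4/5 IT -2.28 and 4.64, and against the mean of the other excitatory labels -2.77 and 5.69. The male CTX-2 sum held 0 P2rx7 UMIs. The female sum held 79, of which 76 lay in 1 of the 77 nuclei. With 1 library per sex the difference between them was not tested. P2rx7 was singled out after its values were seen.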

How the results depend on the processing

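Counts are given as higher and lower genes against CTX-1, then L4/5 IT, then the mean of the other excitatory labels, where they left the range of 1.5 times the reported count, and for those the cause was not tested unless the setting itself uses fewer genes, nuclei or UMIs. The fit with the library as a replicate block gave 47 and 33, 93 and 177, and 73 and 32, and kept all 67 named results. Without the filter on low counts there were 55 and 33, 72 and 142, and 93 and 34. DESeq2 called 22 lower against CTX-1, 50 higher against L4/5 IT, and 58 higher and 20 lower against the mean. Against L4/5 IT, 20 were lower without TMM and 32 with excitatory labels only in the fit. Thinning each nucleus left 3 lower against CTX-1, 3 and 4 against L4/5 IT, and 19 and 2 against the mean. Leaving out nuclei with 3 or more microglia marker UMIs left 0 lower against CTX-1, 6 and 4 against L4/5 IT, and 21 and 0 against the mean. Subtracting ambient RNA, estimated from the microglia markers at up to 66.7% of the CTX-2 UMIs from 131 and 458 marker UMIs, left 2 and 0 against CTX-1, 0 and 0 against L4/5 IT (where Tshz2 had an adjusted p of 0.351, with log2 differences of 2.97 to 3.95 over its alternatives), and 23 higher against the mean. With the CTX-2 nuclei of cluster 3 only, fewer nuclei by construction, there were 8 and 1 against CTX-1, 8 higher against L4/5 IT and 10 lower against the mean, and the signs of Foxp2 (-0.78) and Gm26870 (-1.42) against CTX-1, Rpl38 (-0.97) against L4/5 IT and Gm26870 (-1.58) against the mean reversed.

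Further settings were chosen after seeing the data. With only the nuclei that were CTX-2 in both mappings there were 14 and 3, 3 and 15, and 15 lower against the mean. Without cluster 20 there were 20 and 30 against L4/5 IT. With nuclei below 2300 UMIs only, where 973 genes could be tested against CTX-1, 0 were higher and 0 lower.

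The share of CTX-2 was 8.19% of excitatory nuclei and 2.83% of neurons with at least 2300 UMIs, and 5.59% to 6.41% in 1 library alone. After thinning, the mean share of nuclei with a UMI was 6.41% for Rorb, 16.4% for Slc17a7, 12.8% for Atf3, 43.9% for Ecel1, 41.1% for Sox11 and 67% for Tshz2 (added after seeing the data). In 1 library alone the unthinned shares ranged from 26.0% to 31.2% for Cux2, 6.49% to 14.3% for Slc17a7, 14.3% to 20.8% for Atf3, 41.6% to 42.9% for Ecel1, 19.5% to 24.7% for Ddit3, 22.1% to 36.4% for Sox11 and 31.2% to 36.4% for Tshz2, and Rorb was at 11.7% in both. Counts of calls cannot be had from 1 library. Over the 67 named results and the settings with a test, 479 values kept direction and side of the threshold, 252 lost the call and 4 reversed, while in 1 library alone, with no test, 115 moved by less than the spread between libraries and 19 by more. The depth of CTX-2 limits a gene at 0 to an upper level of 16.4 and 11.7 CPM.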
